A study of Homo sapiens with 6 samples.

Results

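The centromere and kinetochore genes described here are 36 members of the machinery that ties chromosomes to the mitotic spindle, taken by gene symbol from a table of 58336 genes. The list covers CENP-A and its loading factors, CENP-B, the inner kinetochore, the microtubule-binding KMN network, the SKA complex, the corona proteins CENP-E and CENP-F, and the shugoshins. All 36 were found by Ensembl identifier and all 36 passed the filter on low counts. Polyadenylated RNA was sequenced from A2780, an established human ovarian cancer cell line, after 48 h with the vehicle (0.1% DMSO, 3 libraries, replicates A, B and C) or with 6 µM TH588 (3 libraries, replicates A, B and C). TH588 is a first-generation mitotic inhibitor of MTH1, the hydrolase that clears oxidized nucleotides. The comparison asks how TH588 altered transcript levels in these cells at 1 dose and 1 time in 1 cell line.

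The centromere is marked by nucleosomes that carry CENP-A, a variant of histone H3, which a dedicated set of factors deposits after each division. The constitutive centromere-associated network (CCAN) sits on CENP-A chromatin throughout the cell cycle and, in mitosis, recruits the KMN network, whose NDC80 complex grips microtubules and whose KNL1 arm recruits checkpoint proteins. The SKA complex strengthens that grip, CENP-E and CENP-F join the outer corona, and the shugoshins protect centromeric cohesion until anaphase. Many genes of this machinery are transcribed mainly in the late part of the cell cycle.

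Transcripts of the machinery were lower after TH588 in every layer. By edgeR's quasi-likelihood test with Benjamini-Hochberg adjustment over 15844 tested genes, 34 of the 36 members were called lower and 0 were called higher at an adjusted p under 0.05. Among all tested genes 25.3% were called lower and 24.2% higher. The 2 members that were not called were CENPH and PMF1. The median log2 fold change (TH588 over DMSO) was -1.04 over the members and 0.02 over all tested genes. Of the members, 19 had a log2 fold change of -1 or less, against 5.36% of all tested genes. In 35 of the 36, every TH588 library lay below every DMSO library, an arrangement seen in 29.0% of tested genes. The upper 95% limit of the log2 fold change was at or under -0.5 for 25 members. The share of all tested genes at that limit was not counted. Levels are given as CPM, the reads of a gene scaled to a common library size after TMM normalization. Summed over the members they were 1575, 1562 and 1623 CPM in DMSO A, B and C and 671.8, 814.6 and 796.6 CPM in TH588 A, B and C. In RNA from a whole culture, fewer cells in the phase that expresses these genes and less RNA per cell cannot be told apart.

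**Figure D1:**
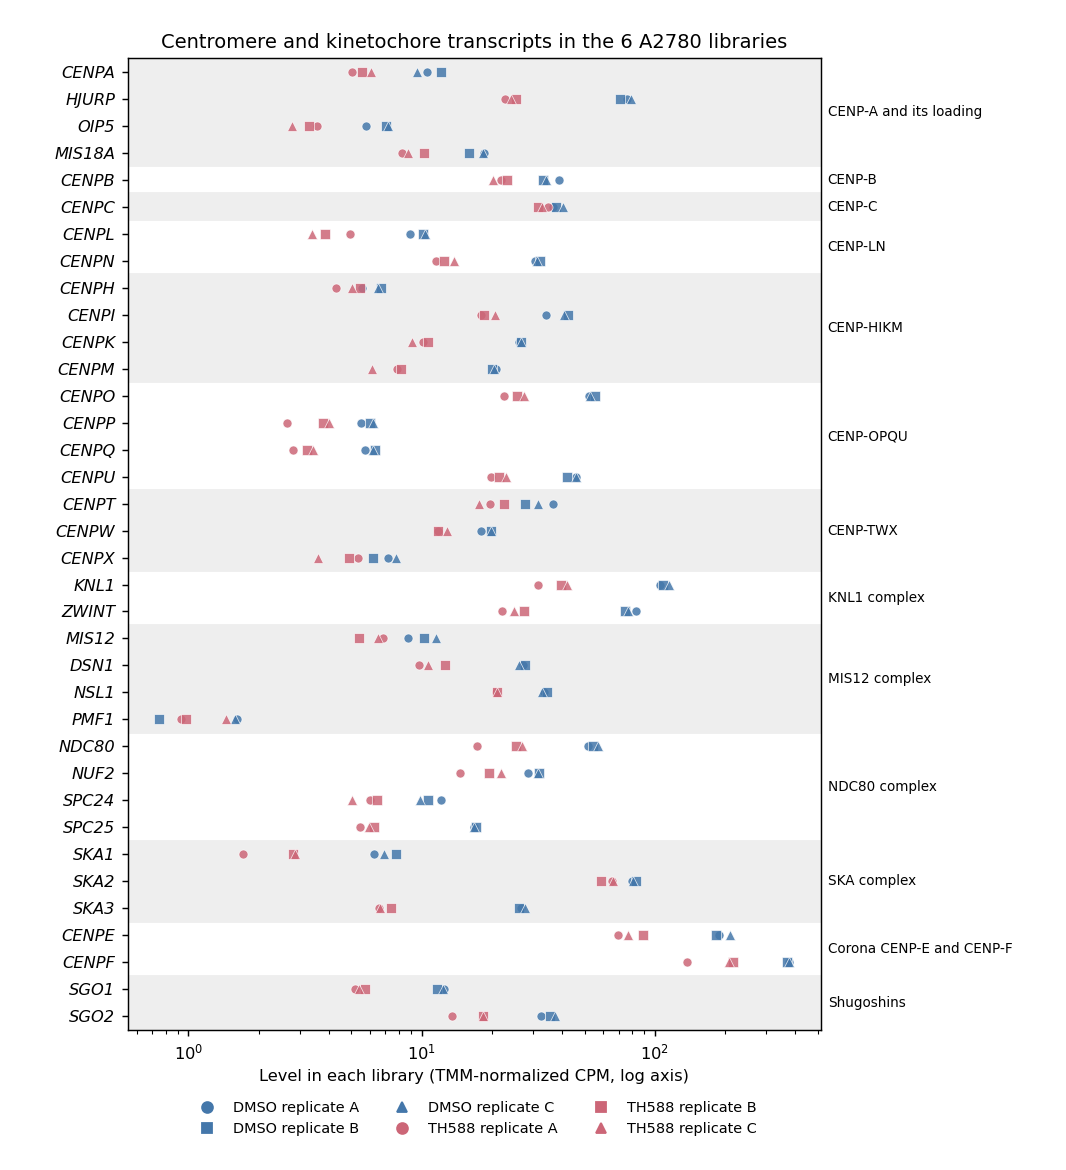
Level of each of the 36 transcripts in each library (TMM-normalized CPM, log axis), with DMSO in blue and TH588 in red, the marker shape giving the replicate and grey bands separating the complexes. The red points lie left of the blue points for every gene except PMF1, where the groups overlap.

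The libraries held 28537837 to 99074175 counts. The lowest total belonged to TH588 A, in which the small nucleolar RNA SNORD3A took 21.9% of counts, against 7.68% to 13.0% in the other 5. TH588 A was also the lowest TH588 library for 24 of the 36 members. Without it, 34 members were again called lower, and their median log2 fold change was -0.95. When libraries were scaled by their totals alone, 60.4% of all called genes were higher in place of 48.9%, the median of all tested genes moved from 0.02 to 0.13, and the members' median was -0.93. Of the mesenchymal markers, VIM stood at 3329 to 4048 CPM and FN1 at 4.09 to 6.31 CPM, neither called, and CDH2 was called lower (log2 fold change -0.38, adjusted p = 0.0146). PAX8, WT1, KRT8, CDH1 and MUC16, which mark ovarian or other epithelial carcinoma, did not exceed 0.262 CPM in any library. The T cell marker CD3E was at 0 in every library, and no leukocyte or endothelial marker exceeded 1.20 CPM, although CD14 was called higher at 0.276 to 0.411 CPM in TH588 (log2 fold change 2.29, adjusted p = 0.00393). Of the fibroblast markers, COL1A2 was called higher (log2 fold change 1.36, adjusted p = 1.20e-04) and COL1A1 and DCN were not called. EPCAM, an epithelial surface protein, read 0.548, 0.497 and 0.886 CPM in DMSO and 4.33, 4.96 and 4.91 CPM in TH588, and KRT18, a simple-epithelium keratin, read 3.86, 3.14 and 3.67 CPM in DMSO and 6.13, 6.995 and 6.51 CPM in TH588, and both were called higher. The part of these differences in the results below was not tested.

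Promoters of several members carry short sequences known from genes of the late cell cycle, which the choice of members did not use. The cell cycle homology region, or CHR, is bound by MuvB complexes that repress such genes in quiescent cells and activate them in G2 and mitosis; CCAAT boxes bind NF-Y, and E2F cores bind E2F factors. RefSeq promoter windows (250 bases before to 50 after the start, GRCh38.p14) were found for 31 of the 36 members, all but MIS18A, CENPL, CENPH, CENPM and KNL1. A CHR (TTTGAA or TTCGAA, either strand) was present in 15 of the 31 windows (48.4%), against 16.6% of all 27305 windows and 11.6% of the 11124 windows of tested genes. The members with a CHR were CENPA, CENPC, CENPF, CENPN, CENPO, CENPW, HJURP, NDC80, NUF2, OIP5, SGO1, SKA1, SKA3, SPC25 and ZWINT. Within 50 bases of the start, a limit chosen after the positions were seen, 13 of the 31 held one (41.9%), against 5.05% of all windows and 3.25% of those of tested genes. CCAAT was in 19 members (61.3%, against 35.7% of all windows and 36.7% of those of tested genes) and an E2F core (TTTGGCGC, TTTCGCGC, TTTCCCGC, TTTGCCGC or GGCGGGAA, of which TTTCCCGC and GGCGGGAA overlap when read on opposite strands) in 8 members (25.8%, against 5.57% and 8.92%). The median log2 fold change was -1.16 over the 15 members with a CHR and -0.82 over the 16 without. It was -0.99 with and -1.06 without a CCAAT box, and -1.06 with and -0.99 without an E2F core. These medians are a description with no test, and they leave out the 5 members without a window. The log2 fold changes of those 5 were -0.96 (MIS18A), -1.30 (CENPL), -0.33 (CENPH), -1.48 (CENPM) and -1.53 (KNL1). With a CHR the values ran from -1.96 (SKA3) to -0.21 (CENPC), and without one from -1.42 (CENPK) to -0.22 (PMF1). A match states only that these letters are present.

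The 5 promoters below are shown because they include the gene with the largest fall (SKA3), a gene with all 3 kinds of motif near its start (SPC25), a gene with adjoining CHR matches (NDC80), the centromere's own histone (CENPA) and a member whose printed stretch has none of the motifs (CENPB). The window of CENPB does hold an E2F core, which lies upstream of its printed stretch. Each runs 5′ to 3′ on the gene's strand from 100 bases before the start through the first 30 transcribed, and capitals mark a CHR, a CCAAT box or an E2F core on either strand. The stretches are chr13:21176523-21176652 on the minus strand for SKA3, chr2:168890401-168890530 on the minus strand for SPC25, chr18:2571457-2571586 on the plus strand for NDC80, chr2:26785956-26786085 on the plus strand for CENPA and chr20:3786711-3786840 on the minus strand for CENPB.
SKA3: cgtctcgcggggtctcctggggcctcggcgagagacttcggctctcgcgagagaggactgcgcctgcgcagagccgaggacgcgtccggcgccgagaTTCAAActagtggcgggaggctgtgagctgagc
SPC25: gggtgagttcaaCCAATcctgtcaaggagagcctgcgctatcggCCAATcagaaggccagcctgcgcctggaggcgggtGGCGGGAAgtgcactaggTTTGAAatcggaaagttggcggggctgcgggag
NDC80: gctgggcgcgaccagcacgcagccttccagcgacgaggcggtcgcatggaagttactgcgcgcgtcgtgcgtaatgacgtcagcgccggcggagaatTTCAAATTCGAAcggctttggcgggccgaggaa
CENPA: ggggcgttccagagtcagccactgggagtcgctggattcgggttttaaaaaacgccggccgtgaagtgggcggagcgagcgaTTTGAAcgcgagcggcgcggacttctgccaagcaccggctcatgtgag
CENPB: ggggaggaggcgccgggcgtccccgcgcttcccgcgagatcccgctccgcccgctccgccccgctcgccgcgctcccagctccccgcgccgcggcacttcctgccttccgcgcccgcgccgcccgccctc
In SKA3 and NDC80 the CHR reads TTCAAA, its reverse complement, and in SKA3, SPC25 and NDC80 it begins 3 bases before the start.

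The 4 genes of CENP-A and its loading were all called lower, with log2 fold changes from -1.63 to -0.94. HJURP (ENSG00000123485, chr2:233833416-233854566), the chaperone that carries CENP-A to the centromere, had 76.0, 70.5 and 78.8 CPM in DMSO A, B and C and 22.9, 25.5 and 24.1 CPM in TH588 A, B and C. Its fall of 3.10-fold (log2 fold change -1.63 ± 0.08 SE, adjusted p = 5.04e-08) was the most negative of the group. CENPA itself (ENSG00000115163, chr2:26764289-26801067) had 10.6, 12.1 and 9.58 CPM in DMSO and 5.01, 5.55 and 6.09 CPM in TH588, again with no overlap of the groups. Its log2 fold change was -0.94 ± 0.13 (adjusted p = 8.36e-05), and its 95% interval ran from -1.23 to -0.66 where that of HJURP ran from -1.82 to -1.45. The MIS18 complex prepares centromeric chromatin for new CENP-A, and its members MIS18A and OIP5 (MIS18 beta) had log2 fold changes of -0.96 and -1.07. In the table's gene models, 38.0% of the exon bases of OIP5 lie opposite exons of the antisense gene OIP5-AS1, so that without strand information part of its reads cannot be told apart from that gene's.

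CENPB (ENSG00000125817, chr20:3783851-3786690), which binds a short box in alpha satellite DNA, had 38.7, 33.2 and 34.1 CPM in DMSO and 22.0, 23.2 and 20.3 CPM in TH588. The groups were apart, and the log2 fold change was -0.69 ± 0.09 (adjusted p = 7.11e-05).

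Of the 14 CCAN members, 13 were called lower, and their median log2 fold change was -0.98. CENPC (ENSG00000145241, chr4:67468748-67545606), the scaffold that reads CENP-A nucleosomes and reaches out to the KMN network, was the least changed. Its levels were 36.7, 37.7 and 40.3 CPM in DMSO and 34.9, 31.5 and 32.7 CPM in TH588. The groups did not overlap, but the log2 fold change was only -0.21 ± 0.08 with an adjusted p of 0.0483, and the call was lost in 14 of 16 alternative settings (adjusted p from 0.0483, at the stricter threshold of 0.01, to 0.363).

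CENPL and CENPN form the pair that contacts the CENP-A nucleosome beside CENPC. CENPN (ENSG00000166451, chr16:81006498-81033114) had 30.5, 32.2 and 31.1 CPM in DMSO and 11.5, 12.5 and 13.8 CPM in TH588, a 2.47-fold fall. CENPL (ENSG00000120334, chr1:173799550-173824720) had 8.92, 10.2 and 10.3 CPM in DMSO and 4.93, 3.86 and 3.40 CPM in TH588, a 2.46-fold fall. Both log2 fold changes were -1.30, with SE of 0.10 for CENPN and 0.15 for CENPL (adjusted p = 6.17e-07 and 1.79e-05), so the members of this pair could not be separated. For CENPN, 20.1% of exon bases lie opposite exons of other genes.

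The CENP-HIKM subcomplex bridges the layers of the CCAN and contained both a strongly lowered and an uncalled transcript. CENPM (ENSG00000100162, chr22:41938721-41947164) had 20.9, 20.1 and 20.5 CPM in DMSO and 7.85, 8.16 and 6.15 CPM in TH588, with a log2 fold change of -1.48 ± 0.12 (adjusted p = 1.49e-06). CENPK and CENPI were also called lower, with log2 fold changes of -1.42 and -1.03. CENPH (ENSG00000153044, chr5:69189548-69210357) had 5.55, 6.70 and 6.47 CPM in DMSO and 4.30, 5.43 and 5.02 CPM in TH588. Every TH588 value of CENPH was under every DMSO value, yet its log2 fold change of -0.33 ± 0.14 (95% interval -0.63 to -0.03) had an adjusted p of 0.0637. Without TH588 B it was -0.41 (adjusted p = 0.0477), and with a trend over gene length removed -0.40 (adjusted p = 0.0279). In every other alternative setting CENPH was not called. With libraries scaled by their totals alone, its log2 fold change was -0.215 (adjusted p = 0.313). Per kilobase of exon, CENPH stood at 0.451 ± 0.0389 (SD, n = 3) of the level of CENPK in DMSO and 0.954 ± 0.127 in TH588, with no overlap of the libraries.

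In the CENP-OPQU subcomplex, whose member CENP-U docks PLK1, all 4 transcripts were called lower. CENPO (ENSG00000138092, chr2:24793136-24822376) had 52.2, 55.6 and 52.8 CPM in DMSO and 22.5, 25.6 and 27.4 CPM in TH588, with a log2 fold change of -1.08 ± 0.09 (adjusted p = 1.36e-06). CENPP (ENSG00000188312, chr9:92325484-92620533) had 5.51, 6.00 and 6.18 CPM in DMSO and 2.65, 3.78 and 4.002 CPM in TH588, with a log2 fold change of -0.73 ± 0.16 (adjusted p = 0.00204). Neither gene showed overlap of the groups. Exons of other genes lie opposite 31.4% of the exon bases of CENPO and 39.5% of those of CENPP. CENPU (11.7% opposite other genes) and CENPQ had log2 fold changes of -1.05 and -0.93.

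The CENP-TWX members contain histone folds and give the NDC80 complex its second anchor through CENP-T. They lay close together, with log2 fold changes from -0.68 to -0.63, and all 3 were called lower. CENPT (ENSG00000102901, chr16:67828157-67847811, 19.6% opposite other genes) had 36.7, 27.7 and 31.7 CPM in DMSO and 19.7, 22.6 and 17.6 CPM in TH588 (adjusted p = 6.08e-04). CENPX (ENSG00000169689, chr17:82018702-82024107), which also acts in the Fanconi anemia pathway, had 7.16, 6.22 and 7.76 CPM in DMSO and 5.34, 4.90 and 3.60 CPM in TH588 (adjusted p = 0.00637). The gap between the groups was narrow for CENPX, 6.22 against 5.34 CPM at the nearest libraries. CENPW, the histone-fold partner of CENPT, had a log2 fold change of -0.66.

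In the KMN network 9 of 10 members were called lower, and the median was -1.06. Both genes of the KNL1 complex had log2 fold changes under -1.5. ZWINT (ENSG00000122952, chr10:56357228-56361275), which links KNL1 to the corona, had 83.0, 74.2 and 76.6 CPM in DMSO and 22.0, 27.3 and 25.0 CPM in TH588, with a log2 fold change of -1.65 ± 0.10 (adjusted p = 1.02e-07). KNL1 (ENSG00000137812, chr15:40594020-40664342), the scaffold on which BUB1 and BUB3 assemble, had 105, 109 and 115 CPM in DMSO and 31.6, 39.8 and 41.9 CPM in TH588, with a log2 fold change of -1.53 ± 0.10 (adjusted p = 3.39e-07). The DMSO levels of both genes were more than 2-fold the TH588 levels in every pairing of libraries.

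The MIS12 complex connects the CCAN to the other KMN arms. DSN1 (ENSG00000149636, chr20:36751791-36773818) had 27.2, 27.9 and 26.1 CPM in DMSO and 9.79, 12.6 and 10.7 CPM in TH588, with a log2 fold change of -1.29 ± 0.11 (adjusted p = 1.71e-06). NSL1 and MIS12 were called lower as well, with log2 fold changes of -0.68 and -0.72. PMF1 (ENSG00000160783, chr1:156212993-156240042) was the one member whose groups overlapped, with 1.62, 0.751 and 1.59 CPM in DMSO and 0.934, 0.974 and 1.45 CPM in TH588. Its log2 fold change of -0.22 ± 0.31 had a 95% interval from -0.90 to 0.46 (adjusted p = 0.593), wide enough to include the fall of NSL1. PMF1 had 25 to 149 counts per library, the lowest level of all members per kilobase in DMSO. In the table's gene models 23.3% of its exon bases, and in the GENCODE annotation 53.7% of the bases of its principal transcript, lie in exons of the read-through gene PMF1-BGLAP on the same strand. The part of this overlap in its low count was not tested.

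All 4 subunits of the NDC80 complex were called lower. SPC25 (ENSG00000152253, chr2:168834132-168913371), on the side of the complex that faces the CCAN, had 16.8, 17.2 and 16.7 CPM in DMSO and 5.42, 6.25 and 5.97 CPM in TH588, with a log2 fold change of -1.51 ± 0.11 (adjusted p = 4.92e-07). NUF2 (ENSG00000143228, chr1:163266576-163355764), at the microtubule-binding end, had 28.7, 31.8 and 31.6 CPM in DMSO and 14.6, 19.4 and 22.0 CPM in TH588, with a log2 fold change of -0.71 ± 0.13 (adjusted p = 6.74e-04). NDC80, the other microtubule-binding subunit, had a log2 fold change of -1.21, and SPC24, the partner of SPC25, one of -0.90. TH588 A was the lowest library for NUF2 and NDC80. Without it their log2 fold changes were -0.56 and -1.04. Per kilobase, NUF2 supplied between 23.5% and 25.1% of the complex's transcripts under DMSO and between 30.5% and 34.4% under TH588. The share of SPC25 lay between 24.1% and 25.2% under DMSO and between 17.1% and 20.7% under TH588.

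The SKA complex held both the most lowered of all members and 1 of the least lowered. SKA3 (ENSG00000165480, chr13:21153595-21176602), the subunit that CDK1 phosphorylates to dock the complex on NDC80, had 26.7, 26.1 and 27.6 CPM in DMSO and 6.58, 7.41 and 6.65 CPM in TH588. Its 3.88-fold fall (log2 fold change -1.96 ± 0.10, adjusted p = 5.62e-08) put it at percentile 0.309 of all tested genes. SKA1, the microtubule-binding subunit, had a log2 fold change of -1.46. SKA2 (ENSG00000182628, chr17:59109951-59155269), which forms the coiled-coil core with SKA1 and SKA3, had 79.5, 83.2 and 80.3 CPM in DMSO and 65.5, 58.6 and 66.4 CPM in TH588. The groups were again apart, but the log2 fold change of SKA2 was -0.35 ± 0.08 (95% interval -0.52 to -0.18, adjusted p = 0.00283). SKA2 accounted for 69.7% ± 0.600 (SD, n = 3) of the complex's transcripts per kilobase in DMSO and 86.7% ± 1.90 in TH588, and SKA3 for 23.8% ± 0.971 and 9.73% ± 1.14. The ratio of SKA2 to SKA3 per kilobase was 2.93 ± 0.144 in DMSO and 8.99 ± 1.15 in TH588. These ratios were formed after the fold changes were seen and carry no test.

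**Figure D2:**
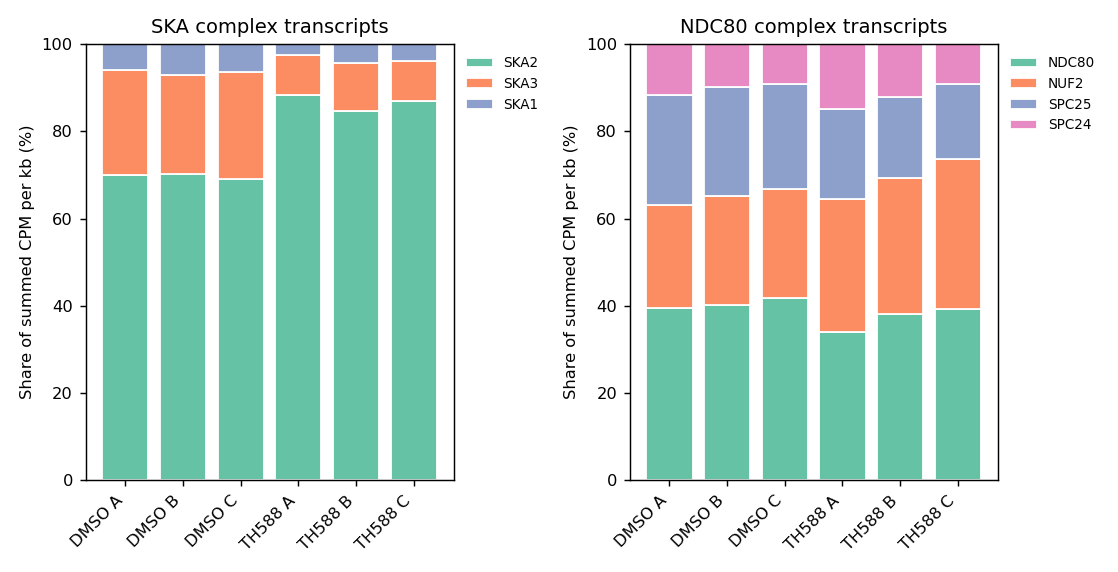
Share of the summed transcript level per kilobase (percent of CPM per kb) taken by each subunit of the SKA complex (left) and of the NDC80 complex (right) in each of the 6 libraries. SKA2 took between 69.1% and 70.3% under DMSO and between 84.6% and 88.4% under TH588.

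The corona proteins had the highest levels in CPM. CENPF (ENSG00000117724, chr1:214603195-214664588), a large protein that accumulates in G2, had 377, 367 and 377 CPM in DMSO and 137, 217 and 209 CPM in TH588, with a log2 fold change of -0.99 ± 0.14 (adjusted p = 9.33e-05). TH588 A stood well under the other TH588 libraries, and without it the log2 fold change was -0.80. CENPE (ENSG00000138778, chr4:103105806-103198409), the kinesin that moves chromosomes toward the spindle equator, had 188, 183 and 210 CPM in DMSO and 69.3, 88.7 and 77.1 CPM in TH588, with a log2 fold change of -1.30 ± 0.10 (adjusted p = 8.05e-07).

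Both shugoshins, which bring the PP2A phosphatase to centromeric cohesin, were called lower. SGO1 (ENSG00000129810, chr3:20160593-20186292, 17.7% of exon bases opposite other genes) had 12.5, 11.6 and 12.4 CPM in DMSO and 5.19, 5.74 and 5.39 CPM in TH588, a log2 fold change of -1.16 ± 0.11 (adjusted p = 4.80e-06). SGO2 (ENSG00000163535, chr2:200510008-200583782) had 32.4, 35.4 and 37.2 CPM in DMSO and 13.5, 18.3 and 18.4 CPM in TH588, a log2 fold change of -1.05 ± 0.12 (adjusted p = 1.67e-05). Their intervals, -1.40 to -0.91 and -1.31 to -0.79, overlapped.

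**Figure D3:**
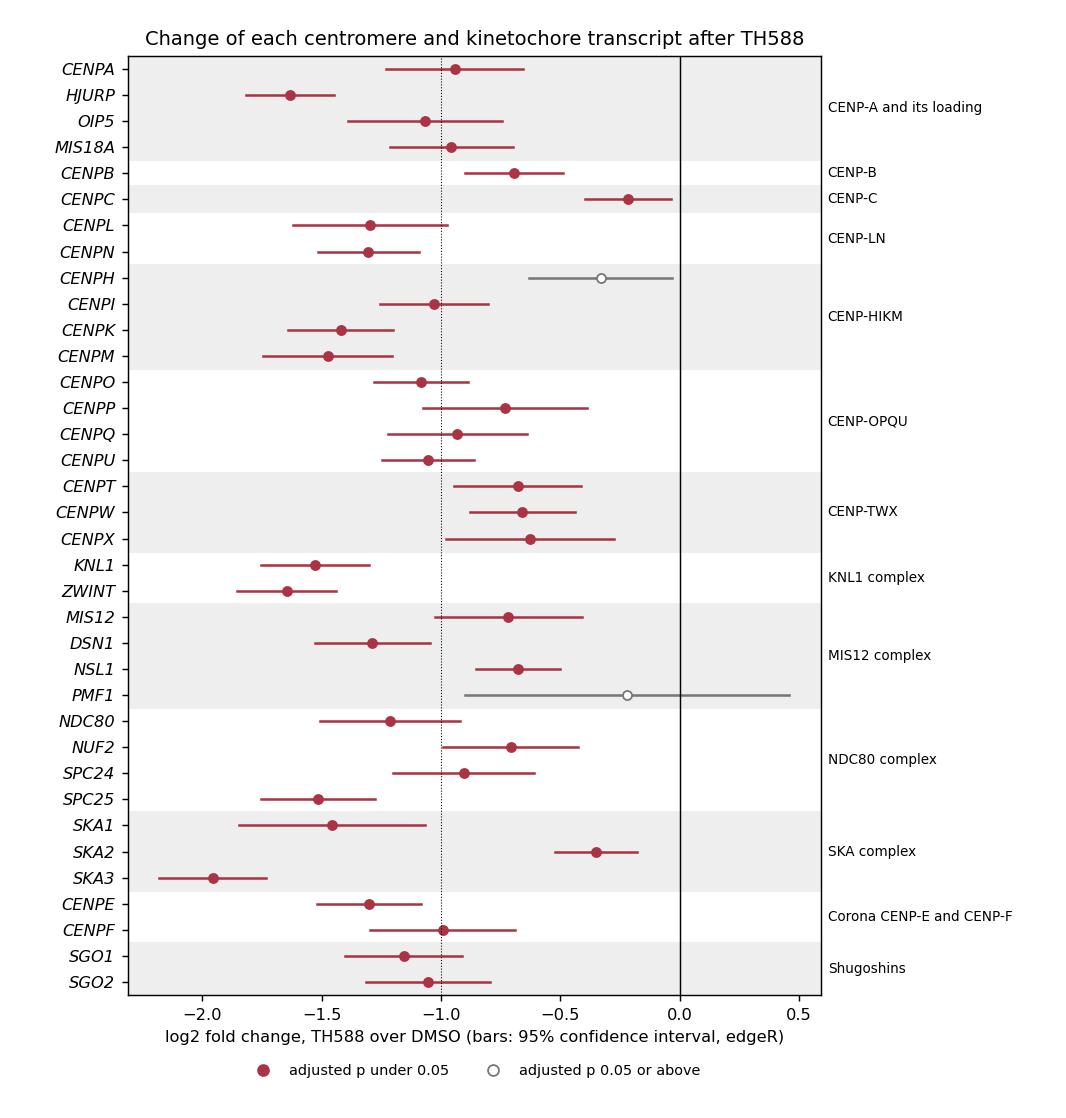
Log2 fold change of each member (TH588 over DMSO, edgeR) with its 95% confidence interval, filled where the adjusted p was under 0.05, with grey bands separating the complexes. The solid line marks no change and the dotted line a log2 fold change of -1, which 19 members reached, while the open points are CENPH and PMF1.

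Levels were compared between genes per kilobase of the merged exon length of the gene models, which can differ from the transcript expressed. The models hold 25.5% of the principal transcript of NSL1, and CENPK has 4312 exon bases against 1731 in its principal transcript. Ranks and ratios between genes, here and above, therefore depend on the gene models. On this scale ZWINT was highest in DMSO with 32.8 ± 1.92 CPM per kb (SD, n = 3), followed by CENPF with 32.0 ± 0.479. Next came SKA2 with 25.7 ± 0.609, CENPW with 24.1 ± 1.35 and CENPE with 20.5 ± 1.51. The mean ± SD ranges of ZWINT and CENPF overlapped, as did those of SKA2 and CENPW. In TH588 the order was SKA2 with 20.2 ± 1.35, CENPF with 16.0 ± 3.77, CENPW with 15.3 ± 0.781 and ZWINT with 10.4 ± 1.12 CPM per kb, and by the same measure CENPF overlapped both SKA2 and CENPW. CENPC moved from rank 27 to rank 17 and SKA3 from rank 18 to rank 27 among the 36. PMF1 and CENPP, at 0.524 ± 0.196 and 0.602 ± 0.0353 CPM per kb in DMSO, were the lowest. Summed per kilobase, the members fell from 362.1 ± 5.30 to 176.5 ± 11.3 CPM per kb, with no overlap of the libraries. Across the 36 genes, which share the same libraries and are not independent, Spearman's rho of the log2 fold change was -0.30 with the DMSO level per kilobase and -0.11 with exon length. CENPA, per kilobase, stood at 0.278 ± 0.0488 of its chaperone HJURP in DMSO and 0.443 ± 0.0385 in TH588. NSL1 stood at 0.829 ± 0.0084 of its partner DSN1 in DMSO and 1.29 ± 0.152 in TH588. Both ratios were apart in all libraries and, like those above, were formed after the fold changes were seen. The libraries overlapped for the ratio of MIS12 to DSN1, 0.327 ± 0.0535 in DMSO and 0.501 ± 0.118 in TH588. They also overlapped for that of NDC80 to SPC25, 1.64 ± 0.088 in DMSO and 2.01 ± 0.339 in TH588. The share of SPC24 in the NDC80 complex overlapped as well, at 10.3% ± 1.34 in DMSO and 12.1% ± 2.82 in TH588.

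**Figure D4:**
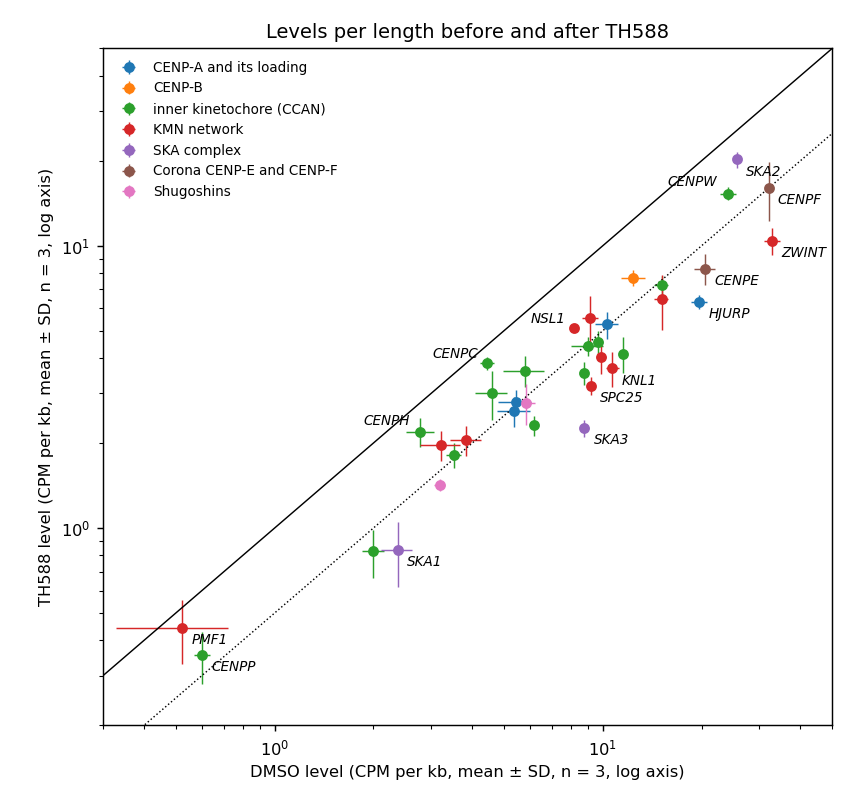
Mean level of each member per kilobase of exon in DMSO (x axis) and TH588 (y axis), both on log axes, with SD over 3 libraries as bars and color by layer. The solid line marks equal levels and the dotted line a 2-fold fall, and CENPC, PMF1, CENPH and SKA2 lie nearest the solid line while SKA3 lies farthest under the dotted line.

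The same machinery has further parts, and a list of 33 partner genes was examined beside the members. Of these, 32 were tested, 28 were called lower and 0 higher, where 25.3% of all tested genes were called lower and 24.2% higher. Their median log2 fold change stood at -0.80, and 12 reached -1 or less, against 5.36% of all tested genes. All 6 checkpoint proteins that work at the kinetochore (BUB1, BUB1B, BUB3, MAD1L1, MAD2L1 and TTK) were called lower (median log2 fold change -1.17), as were all 5 genes of the chromosomal passenger complex and PLK1 (median -1.12). The groups overlapped for MAD1L1 (log2 fold change -0.54, adjusted p = 0.0201), and its call was lost without DMSO A (-0.34), TH588 A (-0.46) or TH588 C (-0.39) and with scaling by library totals alone (-0.43). Of the corona and motor partners 8 of 10 were called lower (median -0.74). Among these 8, NDEL1 was just under the threshold (log2 fold change -0.26, adjusted p = 0.0494) and lost its call in most alternatives. Of the assembly and phosphatase partners 5 of 6 were called lower (median -0.58), and of the other inner centromere and loading factors 4 of 5 tested (median -0.79).

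The largest fall among the partners was that of AURKB, the kinase of the passenger complex that corrects faulty attachments. It had 67.0, 59.0 and 68.5 CPM in DMSO and 24.7, 27.7 and 20.4 CPM in TH588, with a log2 fold change of -1.42 ± 0.11 (adjusted p = 1.07e-06). BUB1B, the checkpoint protein BUBR1, had 274, 285 and 298 CPM in DMSO and 101, 125 and 121 CPM in TH588, with a log2 fold change of -1.30 ± 0.09 (adjusted p = 4.60e-07). ITGB3BP, also known as CENP-R of the CCAN, had 21.6, 20.02 and 21.5 CPM in DMSO and 6.61, 9.82 and 9.17 CPM in TH588, with a log2 fold change of -1.28 ± 0.14 (adjusted p = 1.02e-05). None of the 3 had overlapping groups. Exon bases shared with the read-through gene BUB1B-PAK6 on the same strand make up 10.2% of BUB1B.

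The 4 partners that were tested and not called were RBBP4, a histone chaperone, NDE1, a dynein regulator, CLASP1, a microtubule plus-end protein, and CHAMP1, which acts in spindle attachment. CLASP1 had 111, 105 and 112 CPM in DMSO and 114, 117 and 106 CPM in TH588, with a log2 fold change of 0.04 ± 0.08 (adjusted p = 0.698). The log2 fold changes of RBBP4 and NDE1 were -0.20 and -0.22 (adjusted p = 0.0851 and 0.0540). RBBP4 was called lower without TH588 C (-0.27, adjusted p = 0.0296) and NDE1 without TH588 B (-0.27, adjusted p = 0.0356). Neither was called in any other alternative setting. CHAMP1 had 33.5 CPM in TH588 A and 50.8 and 50.7 CPM in TH588 B and C, against 47.8 to 52.6 CPM in DMSO, and its log2 fold change of -0.15 became 0.03 without TH588 A. CENPS, the partner of CENPX, had at most 2 counts in any library and was not tested. Of the bases of its principal transcript, 59.4% lie in exons of other genes, the read-through CENPS-CORT among them, and the part of this overlap in its low count was not tested.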

How the data were processed

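RNA from A2780 cells was prepared with the TruSeq RNA v2 kit. The authors aligned reads to GRCh38 with TopHat, counted them per gene with featureCounts 1.4.6 and deposited raw counts for 6 libraries, with a Length column of merged exon bases. The methods name UCSC gene models, whereas the deposited table holds Ensembl identifiers, of which 57754 of 58336 matched a symbol. The strand setting and the treatment of reads mapping to several places are not given in the sources used here.

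The groups were compared with edgeR 4.0.16 in R 4.3.3 (TMM, default filter on low counts, quasi-likelihood test, Benjamini-Hochberg adjustment over all tested genes). Each SE was the fitted change over the root of its F statistic. Values per kilobase are TMM CPM divided by the Length column. The replicates are described as independent experiments. The p-values measure only the spread between these 6 libraries, and an exact permutation test of 3 against 3 cannot go below 0.1. No replicates were duplicates: chi-square per degree of freedom between their counts was 25.2 to 180 times that of sampling. It was taken over genes above a small count minimum. Abundant genes weigh most in it, so it does not describe the spread of a typical gene. A count of 3 corresponds to 0.0276 to 0.112 CPM. Exon overlap was computed from the table's gene models, and principal transcripts from GENCODE's annotation of GRCh38. Promoters came from RefSeq (GRCh38.p14).

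The members and lists were chosen with earlier results of these data known. Every member is named. Values per library are given for the members with the most negative and the most positive log2 fold change in each complex, for members not called lower, and for the 3 partner genes with the largest called changes in each direction. The exon overlap is given for named members where it reaches 10%. CLASP1 and CHAMP1 were named in full, and ratios were formed, after their values were seen. Alternatives tried were scaling by library totals alone or by DESeq2's size factors, testing with limma-voom (limma 3.58.1) or DESeq2 1.42.0, leaving the filter out or requiring 10 counts in all libraries, an adjusted p under 0.01, omission of each library, the replicate letter as a block, removal of the 10 most abundant genes and removal of a smooth trend over gene length. The procedure was also run on simulated counts in which few genes changed, in both directions. Many genes were called in the data here, so that run does not test the normalization or the error rate under such conditions.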

Additional observations from a re-analysis of the deposited data

How the results depend on the processing

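The members called lower numbered 33 or 34 and those called higher 0 in each of the 16 alternatives, and the partner genes called lower numbered 24 to 28. Scaled by library size only, the members had a median log2 fold change of -0.929 and the CCAN one of -0.867. The CCAN median was -0.958 with at least 10 counts in every library and -1.027 with the gene length trend removed. With 1 library left out, the members' median ranged from -1.075 (without TH588 B) to -0.951 (without TH588 A), the CCAN median from -1.023 (without TH588 C) to -0.919 (without TH588 A), and CHAMP1 from -0.246 (without TH588 B) to 0.027 (without TH588 A).

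CENPC was the one called member that lost its call. It kept it without TH588 A (log2 fold change -0.242, adjusted p = 0.0240) and with limma-voom (-0.225, adjusted p = 0.0386). With the replicate block 33 members were called lower, their median was -1.044 and CENPC had an adjusted p of 0.106, and the other 33 member calls were as without the block. No effect shared by libraries of the same letter was seen, as their deviations correlated at -0.071, -0.083 and 0.00082. Whether such libraries were handled together cannot be told from these values. Among the partners, NDEL1 lost its call in 13 alternatives, MAD1L1 in 5, and CLASP2 and PPP2R5A with library size only. PMF1 ranged from -0.501 (without DMSO B) to -0.029 (without DMSO A). PMF1 had 25 to 149 counts per library, and its levels in DMSO A, B and C were 1.62, 0.751 and 1.59 CPM. The cause of these shifts was not tested.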
